A study of Homo sapiens with 22 samples.

Results

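RNA-seq of untreated WT renal proximal tubule epithelial cells (RPTEC) was compared with RNA-seq of the same WT cells treated with TGF-β. These are 4 of the 22 libraries of the series, 2 for each condition, chosen by their labels. RPTEC are human proximal tubule cells, here immortalized with hTERT, the catalytic subunit of telomerase, and kept under G418 selection for that transgene. Both groups are labelled WT and not as transduced, and both were kept in medium with 2% serum. The treated cells received 10 ng/ml TGF-β for 72 h after a preincubation in the same low serum, while the untreated libraries carry a time label of 0 h. TGF-β and the longer culture in low serum therefore cannot be told apart by these labels. The sources used here do not say whether the 2 replicates of a condition were separate cultures, so p-values measure the spread between these libraries, which may be technical. Because 1 immortalized line was used, the values describe that line. The remaining libraries, from SETD2 KO, rescue and transduced RPTEC, were used to estimate how far duplicates lie apart. They also counted toward the minimum levels that decided which genes were tested or used for the spread.

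TGF-β is a secreted cytokine that is stored in the matrix in a latent form, held by latent TGF-β binding proteins, and is freed by integrins and proteases. It binds the type II receptor TGFBR2, which activates the type I receptor TGFBR1, and this receptor phosphorylates SMAD2 and SMAD3, which enter the nucleus with SMAD4. In tubular epithelium the pathway is known for inducing matrix genes, for arresting the cell cycle and for driving epithelial-to-mesenchymal transition (EMT), the passage of epithelial cells into a motile, matrix-producing state.

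After 72 h of TGF-β, 9 of 27 tested collagen genes, 4 of 17 integrins, 6 of 37 actin cytoskeleton genes and 9 of 27 genes of TGF-β ligands, binders and receptors were called higher in RPTEC. On the lower side were 35 of 60 tested genes of G2 and mitosis and 15 of 47 of S phase. Of the 14585 genes tested, 1143 were called (7.84%). A call needed more than 1 log2 between the group means and a Benjamini-Hochberg adjusted p below 0.05. Of these, 522 were higher (3.58%) and 621 lower (4.26%). Levels are given as normalized counts and changes as differences of log2(normalized count + 1), treated minus WT. Changes were tested with limma in 1 fit of all 22 libraries. Where both libraries of a group were at or under 3 normalized counts, the fold is a bound, given as at least. It is the mean of the other group over 3, so the lower library of that group alone gives a smaller bound. In a limma fit of these 4 libraries alone, 0 genes were called, the lowest adjusted p was 0.057, and 1566 genes passed the fold with an unadjusted p below 0.05. The calls therefore rest on a spread shared with the other groups. When all libraries were brought to 1 common total in place of the authors' scaling, 358 genes were called higher and 935 lower, and the median change of all tested genes moved by −0.20 from 0.00023. On the deposited variance-stabilized scale, which compresses differences, 2719 genes had an adjusted p below 0.05, but 31 also passed 1 log2 unit of that scale.

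The untreated duplicates lay farther apart than the treated ones. In the 8276 genes that averaged 100 normalized counts or more, replicates differed by a median of 0.243 log2 in WT and 0.160 log2 with TGF-β. Only the KO1 duplicates had a wider spread, at 0.273, and the other groups had 0.132 to 0.180. More than 1 log2 separated the WT replicates in 590 of these genes and the treated replicates in 344. The difference had a direction. WT replicate 1 was above WT replicate 2 in 415 of the 522 genes called higher (79.5%) and below it in 475 of the 621 genes called lower (76.5%), while it was above in 47.6% of all tested genes. WT replicate 1 thus lay on the side of the treated libraries for most called genes. FN1 alone, which encodes fibronectin, took 5.37% of all normalized counts in WT replicate 1 and 1.49% in WT replicate 2, against 11.7% and 11.5% with TGF-β. Depth did not separate the WT libraries, with about 14600000 and 14000000 reads, and about 15500000 and 12100000 reads in the treated libraries. These depths were approximated by taking the most frequent low value of each library as the worth of a single read.

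**Figure D1:**
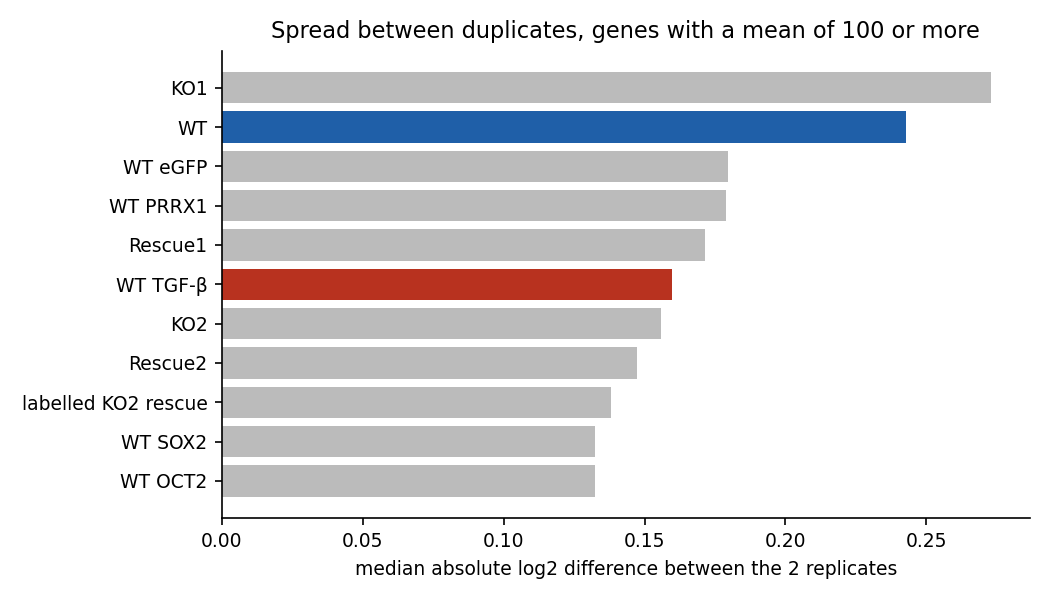
Bars give, for each group of the series, how far its 2 replicates lay apart, as the median absolute log2 difference over 8276 genes that averaged 100 normalized counts or more. The WT bar (0.243, dark blue) is exceeded only by KO1 (0.273), and the TGF-β bar (0.160, red) lies among the other groups.

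Calls were therefore also set against each WT library alone. In 317 of the genes called higher (2.17% of all tested) both treated libraries were more than 1 log2 above each WT library, and in 479 of the genes called lower (3.28%) both were more than 1 log2 below each. These are 60.7% of the genes called higher and 77.1% of those called lower. They are referred to as clear of both WT libraries. Without WT replicate 2 the number called was 739, and without WT replicate 1 it was 1308. Without treated replicate 1 it was 867, with 344 higher, and without treated replicate 2 it was 889.

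**Figure D2:**
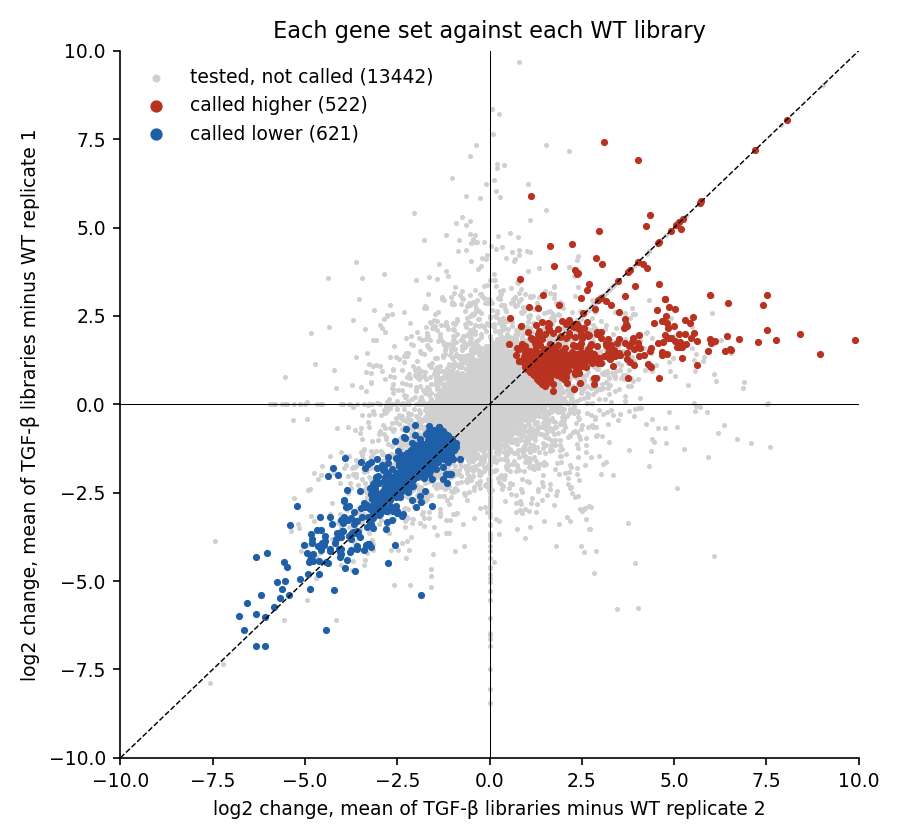
Each point is 1 of the 14585 tested genes, with its log2 change against WT replicate 2 on the x axis and against WT replicate 1 on the y axis (mean of both treated libraries minus the WT library), and the dashed line marks equal changes. Genes called higher (red, 522) lie mostly under the line, so that their change is larger against WT replicate 2, while genes called lower (blue, 621) lie mostly above it, again with the larger change against WT replicate 2.

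The 26 gene lists described from here on were tested on their members that passed the count minimum, and shares are of those tested. The cells were first checked against marker genes. All 10 markers of renal epithelial cells passed the count minimum, with summed levels of 40335 and 43586 normalized counts in WT and 34295 and 36304 with TGF-β. Most of each sum was KRT8 and KRT19. The members moved in both directions, with 3 positive and 7 negative differences. CDH6 and KRT7 were called higher and 0 were called lower. The transcription factors PAX8 and PAX2, which specify kidney epithelium, were present in every library, PAX8 with 2322 and 3743 in WT and 1634 and 1535 with TGF-β and PAX2 with 834 and 937 in WT and 552 and 417 with TGF-β. Both were lower with TGF-β but under the fold required. The limma differences were −0.90 log2 for PAX8 (adjusted p = 4.4e-04) and −0.88 log2 for PAX2 (adjusted p = 6.5e-04). Of 8 markers of the proximal tubule in vivo, 5 were below the count minimum, and of the 3 tested 0 were called in limma, with 1 at an unadjusted p below 0.05. The water channel AQP1 had 124 and 4.77 in WT and 432 and 448 with TGF-β (adjusted p = 0.0682), the endocytic receptor CUBN 34.6 and 13.9 in WT and 62.4 and 52.5 with TGF-β, and the aminopeptidase ANPEP 29.7 and 28.6 in WT and 40.2 and 62.4 with TGF-β. LRP2, the endocytic partner of CUBN, the nuclear receptor HNF4A and the organic anion transporter SLC22A6 were listed at 0 in all 4 libraries. Of the other cell types, the endothelial markers PECAM1, ERG and CLDN5, the leukocyte markers PTPRC, CD3E and MS4A1, and the podocyte marker WT1 were listed at 0 in all 4 libraries. The 7 endothelial markers summed to 4.99 and 40.3 in WT and 5.09 and 5.68 with TGF-β, the 7 leukocyte markers to 155 and 116 in WT and 71.6 and 56.8 with TGF-β. The 5 podocyte markers in the table summed to 477 and 792 in WT and 679.7 and 595 with TGF-β. Of the 2 tested, the sialomucin PODXL was called higher, with 41.8 and 36.9 in WT and 169.7 and 163 with TGF-β, and the actin-binding protein SYNPO was not called, with 436 and 755 in WT and 510.0 and 432 with TGF-β. Of the fibroblast markers, some rose with the treatment. The summed level of all fibroblast markers measured was 12450 and 842 in the WT libraries and 47804 and 46375 with TGF-β, most of it COL1A1. COL1A1, PDGFRA and DCN were called higher among 7 tested. LUM, PDGFRB and COL3A1 had positive differences but were not called in limma (adjusted p = 0.120, 0.120 and 0.0644). THY1, a surface protein of fibroblasts, had 14.3 and 15 in WT and 5.19 and 14.4 with TGF-β and was not called. The part of other cells in the results was not tested.

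Genes called higher in the TGF-β pathway itself included ligands, latent binders and the type I receptor. Of 27 tested ligand, binder and receptor genes, 9 were called higher (33.3%) and 0 lower (4 at an unadjusted p below 0.05), and 7 of the 9 were clear of both WT libraries. The median difference of the list was 0.57 log2 against 0.00023 over all genes tested, with 0.71 against WT replicate 1 and 0.73 against WT replicate 2. INHBA, which encodes the subunit of activin A, had 35.7 and 6.20 normalized counts in the WT libraries and 229.6 and 239 with TGF-β. This was a difference of 3.86 ± 0.61 log2 (SE, adjusted p = 4.0e-04). LTBP2, a latent TGF-β binding protein family member of elastic fibers, had 36.5 and 24.0 in WT and 459.6 and 320.5 with TGF-β, a difference of 3.65 ± 0.61 log2 (SE, adjusted p = 6.8e-04). Both genes were well above either WT library after treatment, and for both the WT replicates differed less than the groups did. NOG, the secreted BMP antagonist noggin, had 36.6 and 23.3 in WT and 168 and 112 with TGF-β, a difference of 2.19 log2 (adjusted p = 1.3e-05). TGFB3, the third TGF-β isoform, had 116 and 50.3 in WT and 367 and 271 with TGF-β. Its difference of 2.03 log2 (adjusted p = 0.0181) was 1.44 at adjusted p = 0.194 without WT replicate 2 and was also lost without either treated replicate, at 1.81 at adjusted p = 0.126 without replicate 1 and 2.25 at adjusted p = 0.0519 without replicate 2. TGFB1, the best known ligand, had 2238 and 1525 in WT and 3618 and 3744 with TGF-β, and its difference of 0.99 log2 (adjusted p = 7.5e-04) was just short of the fold required. Without WT replicate 2, 5 of the 9 calls passed, and the same number passed in every case when each library was left out in turn. The call of TGFB3 was also lost in a fit of only the 10 libraries in 2% serum (adjusted p = 0.0561).

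The receptors moved unequally. TGFBR1, the type I receptor, had 1137 and 1043 normalized counts in the WT libraries and 3469 and 2961 with TGF-β, a difference of 1.56 ± 0.24 log2 (SE, adjusted p = 3.0e-04). The replicates of each group lay close together and the groups did not overlap. TGFBR2, the type II receptor, had 4625 and 4947 in WT and 3678 and 3729 with TGF-β, a difference of −0.37 log2 (adjusted p = 1.0e-04) in the other direction and under the fold required. With 1 common total for all libraries the differences were 1.32 for TGFBR1 and −0.61 for TGFBR2, and with quantile normalization 1.54 and −0.40.

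Feedback genes of the pathway were called in part. Among 24 SMADs and feedback genes, 3 were called higher (12.5%) and 1 lower (4.17%), and the list's median of 0.19 changed sign in 1 or more of the alternatives. PMEPA1, a transmembrane protein that sequesters receptor SMADs, had 2656 and 1513 normalized counts in the WT libraries and 8063 and 8378 with TGF-β, a difference of 2.03 ± 0.35 log2 (SE, adjusted p = 7.9e-04). SKIL, the SMAD corepressor SnoN, had 326 and 353 in WT and 996.51 and 808 with TGF-β, a difference of 1.40 ± 0.32 log2 (SE, adjusted p = 0.0064) that was 1.250 at adjusted p = 0.0632 without treated replicate 1. LDLRAD4, a transmembrane protein that binds receptor SMADs, had 2.46 and 0 in WT and 31.5 and 21.7 with TGF-β, at least 8.86-fold higher, and its call was lost without WT replicate 2 (adjusted p = 0.262) and without either treated replicate (adjusted p = 0.177 and 0.11). SMAD7, the inhibitory SMAD, had 1512 and 1161 in WT and 2309.9 and 2436 with TGF-β, and its difference of 0.84 log2 (adjusted p = 0.00232) was below the fold required. Of the SMADs, SMAD3 had 145 and 566 in WT and 156 and 95.5 with TGF-β. WT replicate 2 stood apart from the other 3 libraries for this gene, and its difference of −1.22 log2 (adjusted p = 0.0702) did not pass. NEDD4L, a ubiquitin ligase that limits activated SMAD2 and SMAD3, had 3668 and 4816 in WT and 1869 and 1905 with TGF-β, a difference of −1.15 log2 (adjusted p = 2.2e-05) that was −0.96 at adjusted p = 3.1e-04 without WT replicate 2 and then under the fold required. Without WT replicate 2, and likewise without treated replicate 1, 2 of the 4 calls passed. ID1, a target of BMP signaling that TGF-β often represses in epithelium, had 73.8 and 96.7 in WT and 49.7 and 64.8 with TGF-β, a difference of −0.57 log2 (adjusted p = 0.463).

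Genes known to respond directly to TGF-β had the highest median of the lists. The lists were chosen with earlier results of these data known, so this rank is a description. Of 24 tested, 10 were called higher (41.7%) and 0 lower (2 at an unadjusted p below 0.05). The median difference was 1.33 log2, and it was 0.89 against WT replicate 1 and 1.86 against WT replicate 2. ADAM12, a membrane metalloprotease, had 4781 and 2283 normalized counts in the WT libraries and 15305 and 14569.8 with TGF-β, a difference of 2.18 ± 0.21 log2 (SE, adjusted p = 4.6e-06). The treated replicates were nearly equal while WT replicate 1 was about 2 times WT replicate 2. IL11, a cytokine of the interleukin-6 family that fibroblasts make in fibrosis, had 253 and 39.0 in WT and 1096 and 1183 with TGF-β, a difference of 3.50 ± 0.64 log2 (SE, adjusted p = 0.00133). CDKN2B, the cyclin-dependent kinase inhibitor p15, had 172 and 199.6 in WT and 714 and 985 with TGF-β, a difference of 2.17 ± 0.35 log2 (SE, adjusted p = 4.6e-04), and its WT replicates were close together. PDGFB, a ligand of platelet-derived growth factor receptors, had 7972 and 4002 in WT and 21424 and 21561 with TGF-β, a difference of 1.93 ± 0.30 log2 (SE, adjusted p = 3.8e-04). NOX4, an NADPH oxidase of renal cells, had 194 and 86.5 in WT and 381 and 380.5 with TGF-β. Its difference of 1.54 log2 (adjusted p = 0.0474) was 0.96 at adjusted p = 0.369 without WT replicate 2, and the call was lost without either treated replicate as well (1.54 at adjusted p = 0.164 and 1.54 at adjusted p = 0.156). TGFBI, a secreted protein named for its induction by TGF-β, was not called. It had 12164 and 896 in WT and 7935 and 8579.6 with TGF-β, so that the treated libraries lay between the WT replicates. The call of NOX4 was also lost in the fit of the 10 libraries in 2% serum (adjusted p = 0.083), with array weights, with the replicate block, with 1 common total and with no filter. CCN2 was not analysed here.

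**Figure D3:**
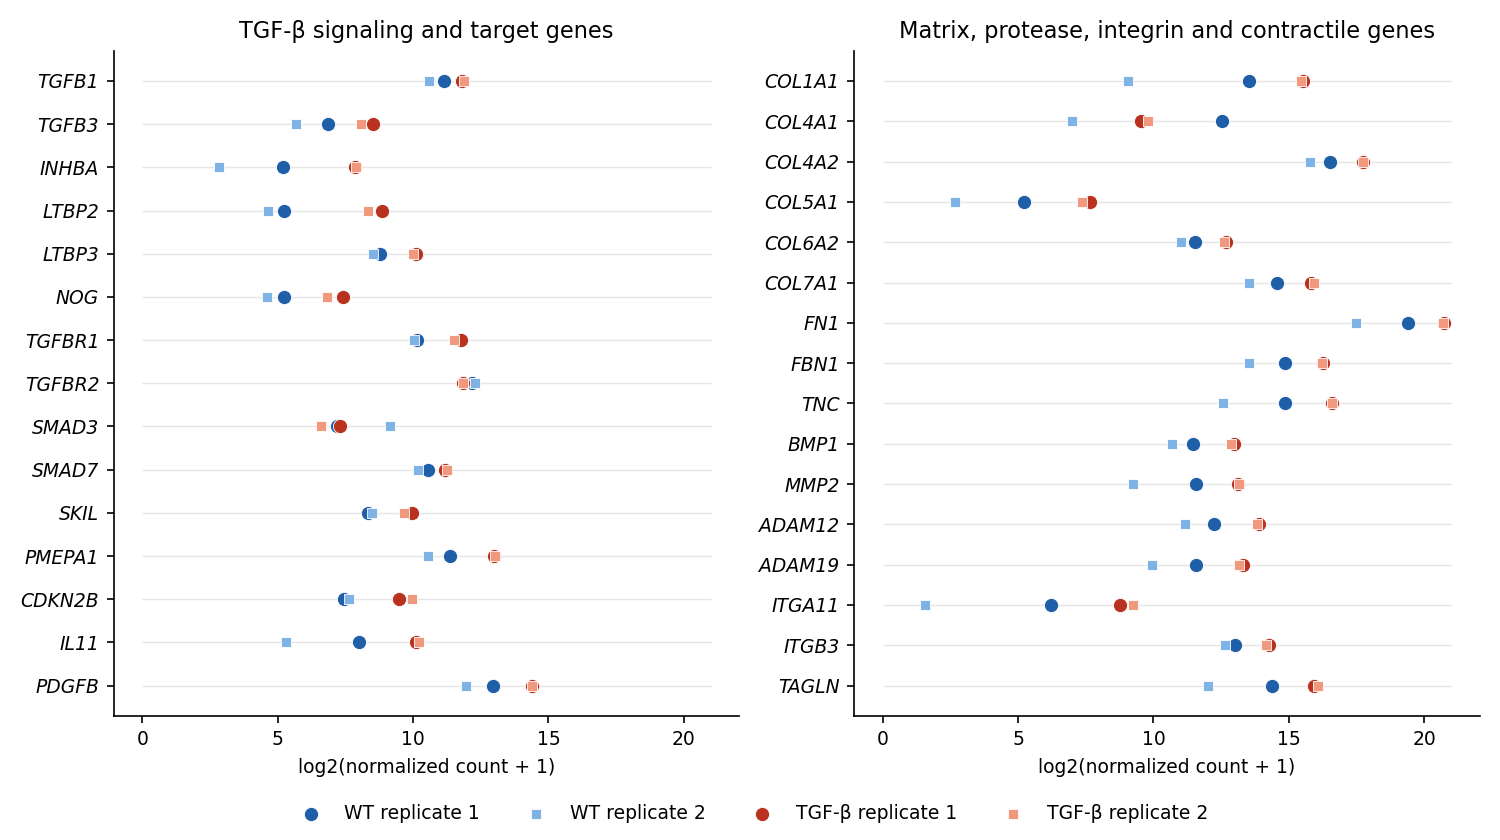
Each row is 1 gene and each point 1 library, on a log2(normalized count + 1) axis, with WT in blue and TGF-β in red (circles, replicate 1; squares, replicate 2). The red points are close together and lie right of both blue points for all genes drawn except TGFBR2 (left of both), SMAD3 (its replicate 1 between the WT points) and COL4A1 (between the WT points), and WT replicate 1 lies between WT replicate 2 and the treated libraries for most of the matrix genes.

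Collagens of fibrils, basement membranes and microfibrils were among the genes that rose. Of 27 tested, 9 were called higher (33.3%) and 0 lower (3 at an unadjusted p below 0.05), and all 9 were clear of both WT libraries. COL4A2, COL5A1, COL6A2, COL6A3, COL7A1, COL8A2, COL16A1 and COL27A1 stood beside COL1A1, and the list had a median of 0.65. COL1A1, the α1 chain of fibrillar collagen I, had 11919 and 532 normalized counts in the WT libraries and 46598 and 45007 with TGF-β. The WT replicates differed by more than 20 times, and both lay under the treated libraries, a difference of 4.18 ± 0.86 log2 (SE, adjusted p = 0.00324). In a fit of only the 10 libraries in 2% serum its call was lost (adjusted p = 0.0624), as was that of COL8A2 (adjusted p = 0.131). COL7A1, which forms the anchoring fibrils under epithelium, had 24052 and 11935 in WT and 57251 and 62986 with TGF-β, a difference of 1.83 ± 0.21 log2 (SE, adjusted p = 2.7e-05). COL5A1, a fibrillar collagen that nucleates collagen I fibrils, had 35.8 and 5.42 in WT and 199.6 and 162 with TGF-β, a difference of 3.55 ± 0.56 log2 (SE, adjusted p = 4.3e-04). COL16A1 had 34.3 and 2.12 in WT and 111 and 183 with TGF-β, a difference of 3.77 ± 0.72 log2 (SE, adjusted p = 0.00179), and here too WT replicate 2 was the lowest library. COL8A2, a short-chain collagen of basement membranes, had 0 and 6.42 in WT and 100.05 and 140.4 with TGF-β, a difference of 5.46 log2 (adjusted p = 0.0159) that was 4.01 at adjusted p = 0.137 without WT replicate 1 and was also lost without treated replicate 1 or 2 (adjusted p = 0.0644 and 0.0857). This gene was listed at 0 in 1 replicate of KO2 and at 108 in the other, so a listing at 0 is not a reliable absence. The paired chains of collagen IV differed. COL4A2 had 93505 and 55847 in WT and 218207 and 219609.6 with TGF-β, a difference of 1.60 ± 0.15 log2 (SE, adjusted p = 4.6e-06), while COL4A1 had 5934 and 125 in WT and 735 and 898 with TGF-β, with the treated libraries between WT replicates that differed by over 40 times. COL4A1 is transcribed from the same locus as COL4A2 in the opposite direction, and its difference of −0.09 log2 (adjusted p = 0.992) was a called 2.69 without WT replicate 1 and a called −2.87 without WT replicate 2.

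Enzymes that process and crosslink collagen followed in part. Of 19 tested, 5 were called higher (26.3%) and 1 lower (5.26%), and 2 of the 5 were clear of both WT libraries. BMP1, the procollagen C-proteinase, had 2783 and 1659 normalized counts in the WT libraries and 8025 and 7549 with TGF-β, a difference of 1.86 ± 0.16 log2 (SE, adjusted p = 1.7e-06). TGM2, the tissue transglutaminase, had 248 and 402 in WT and 836 and 949 with TGF-β, a difference of 1.49 ± 0.20 log2 (SE, adjusted p = 9.3e-05). For both enzymes every treated library was more than 1 log2 above each WT library. P4HA2, a prolyl hydroxylase subunit, had 4061 and 2425 in WT and 8076 and 8514 with TGF-β (log2 change 1.40), and LOX, the lysyl oxidase that crosslinks collagen and elastin, had 563 and 454 in WT and 986 and 1227 with TGF-β (log2 change 1.12). LOX dropped under the fold required without WT replicate 2, at 0.96 at adjusted p = 0.00124, without treated replicate 2, at 0.96 at adjusted p = 0.00157, and with 1 common total, at 0.88. ADAMTS3, a procollagen N-proteinase, had 5.54 and 14.3 in WT and 0 and 0 with TGF-β and was at least 3.31-fold lower, computed against a floor of 3 normalized counts.

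Elastic fiber and matricellular genes gave 8 called higher (29.6%) and 1 lower (3.70%) of 27 tested, and 8 of the 8 were clear of both WT libraries. TNC, the matricellular protein tenascin-C, had 29696 and 6129 normalized counts in the WT libraries and 99337 and 98761 with TGF-β, a difference of 2.88 ± 0.43 log2 (SE, adjusted p = 2.8e-04). THBS2, thrombospondin-2, had 7.46 and 7.70 in WT and 50.3 and 48.5 with TGF-β, a difference of 2.55 ± 0.22 log2 (SE, adjusted p = 1.6e-06), with duplicates within 3 normalized counts of each other in both groups. SPARC, a collagen-binding matricellular protein, had 68.6 and 14.7 in WT and 225 and 207 with TGF-β. Its difference of 2.71 log2 (adjusted p = 0.0236) was 1.64 at adjusted p = 0.267 without WT replicate 2 and was lost without either treated replicate (2.65 at adjusted p = 0.111 and 2.77 at adjusted p = 0.0892) and in the fit of the 10 libraries in 2% serum (adjusted p = 0.122). FN1 had 697564 and 180968 in WT and 1719613 and 1710471 with TGF-β, a difference of 2.27 log2 (adjusted p = 5.1e-04). Set against WT replicate 1 alone the difference was 1.30, and set against WT replicate 2 alone it was 3.24. With quantile normalization it was 1.04 and no longer called. FN1 was the highest gene in WT replicate 1 and in both treated libraries. Quantile normalization gives the top gene of every library the same value, so it cannot show a change of FN1 between these libraries. The lost call therefore says nothing about the rise against WT replicate 1. SPP1, osteopontin, was the called member that fell, with 5557 and 5862 in WT and 2729.7 and 2857 with TGF-β, a difference of −1.03 log2 (adjusted p = 1.8e-07) that was −0.99 at adjusted p = 4.0e-06 without WT replicate 2 and −0.998 without treated replicate 1, under the fold required. Laminins and nidogens went both ways, with 1 of 13 called higher (7.69%) and 2 lower (15.4%). LAMA4, the laminin α4 chain of vessels and mesenchyme, had 676 and 742 in WT and 162 and 50.4 with TGF-β, a difference of −2.95 ± 0.52 log2 (SE, adjusted p = 9.4e-04), with both treated libraries under each WT library. LAMA5, the α5 chain of tubular basement membrane, had 9352 and 7413 in WT and 18981 and 15970.1 with TGF-β, a difference of 1.06 log2 (adjusted p = 5.8e-04) that was 0.90 at adjusted p = 0.0116 without WT replicate 2 and 0.94 at adjusted p = 0.0116 without treated replicate 1, under the fold required, as it was with 1 common total (0.83) and quantile normalization (0.95). NID2, nidogen-2, had 12.2 and 10.6 in WT and 1.67 and 1.30 with TGF-β, at least 3.80-fold lower, and lost its call without any 1 of the 4 libraries (adjusted p from 0.0949 to 0.124). Of the 3 laminin and nidogen calls, 1 passed without WT replicate 2 and 1 without treated replicate 1.

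Proteases of the matrix and their inhibitors were called higher in 7 of 26 tested (26.9%) and lower in 2 (7.69%). ADAM19, a sheddase related to ADAM12, had 3007 and 989 normalized counts in the WT libraries and 10146 and 9179 with TGF-β, a difference of 2.48 ± 0.31 log2 (SE, adjusted p = 6.2e-05). MMP2, gelatinase A, had 3064 and 599 in WT and 8979.8 and 9138 with TGF-β, a difference of 2.74 log2 (adjusted p = 5.8e-04). TIMP3, the inhibitor of metalloproteinases that binds to matrix, had 24.3 and 2.66 in WT and 90.7 and 105 with TGF-β, a difference of 3.36 log2 (adjusted p = 0.00511) that was 1.96 at adjusted p = 0.0791 without WT replicate 2. In these genes WT replicate 1 again lay nearer to the treated libraries. ADAM10, the sheddase of Notch receptors and cadherins, had 5650.3 and 6863 in WT and 3011 and 2679 with TGF-β, a difference of −1.13 log2 (adjusted p = 2.0e-06), which was −0.99 at adjusted p = 2.5e-05 without WT replicate 2 and then just under the fold required. MMP19 had 274 and 382 in WT and 161 and 149 with TGF-β, a difference of −1.06 log2 (adjusted p = 6.1e-04) that was −0.82 at adjusted p = 0.0119 without WT replicate 2 and −0.999 without treated replicate 2, also under the fold required.

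Integrins, the matrix receptors, were called higher in 4 of 17 (23.5%) and lower in 1 (5.88%). ITGA11, the α11 subunit of a collagen receptor of fibroblasts, had 72.6 and 1.99 normalized counts in the WT libraries and 435 and 601 with TGF-β, a difference of 5.11 ± 1.06 log2 (SE, adjusted p = 0.00337). ITGB3, a subunit of αVβ3, had 8182 and 6458 in WT and 19505 and 18165 with TGF-β, a difference of 1.37 ± 0.08 log2 (SE, adjusted p = 4.1e-08), with the smallest SE of the called integrins. ITGB1, the β1 subunit shared by most collagen and laminin receptors, had 4159.7 and 3213 in WT and 9462 and 8625 with TGF-β, a difference of 1.30 ± 0.15 log2 (SE, adjusted p = 2.5e-05). The lower one was ITGB2, a subunit of leukocyte integrins, with 206 and 278 in WT and 124 and 41.2 with TGF-β, whose difference of −1.73 log2 (adjusted p = 0.00871) was −1.51 at adjusted p = 0.0813 without WT replicate 2 and −0.94 at adjusted p = 0.121 without treated replicate 2, and it lost its call in the fit of the 10 libraries in 2% serum (adjusted p = 0.0606). ITGA1, a subunit of a collagen receptor, had 224 and 129 in WT and 330.4 and 402 with TGF-β and lost its call without WT replicate 2 (0.70 at adjusted p = 0.111) without treated replicate 2 (0.96 at adjusted p = 0.0689) and with 1 common total (0.86). Without WT replicate 2, and likewise without treated replicate 2, 3 of the 5 integrin calls passed.

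Genes of the actin cytoskeleton had 6 of 37 called higher (16.2%) and 1 lower (2.70%). TAGLN, the actin-binding protein transgelin, had 21533 and 4122 normalized counts in the WT libraries and 62984 and 69767 with TGF-β, a difference of 2.81 ± 0.45 log2 (SE, adjusted p = 4.8e-04). TPM2, β-tropomyosin, had 893 and 558 in WT and 1788 and 1902 with TGF-β, a difference of 1.38 ± 0.17 log2 (SE, adjusted p = 3.9e-05), and PALLD, palladin of stress fibers, had 5615 and 2331 in WT and 12637 and 13053 with TGF-β, a difference of 1.83 ± 0.24 log2 (SE, adjusted p = 9.3e-05). CALD1, the actin regulator caldesmon, had 10975 and 5824 in WT and 19115 and 21474 with TGF-β, a difference of 1.34 log2 (adjusted p = 1.3e-04) that was 0.88 at adjusted p = 1.0e-05 without WT replicate 2. In contrast, ACTA2, the smooth muscle actin used as a marker of myofibroblasts, had 309.5 and 308 in WT and 306 and 287 with TGF-β, a difference of −0.06 log2 (adjusted p = 0.817) with all 4 libraries alike. MYLK, myosin light chain kinase, was the called member that fell, with 9664 and 14132 in WT and 3457 and 3221 with TGF-β, a difference of −1.81 ± 0.13 log2 (SE, adjusted p = 3.8e-07).

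Mesenchymal markers were called higher in 5 of 22 tested (22.7%) and lower in 1 (4.55%), with a median of 0.39. PDGFRA, the receptor of PDGF-A that marks mesenchyme, had 7.84 and 2.86 normalized counts in the WT libraries and 75.9 and 110.4 with TGF-β, a difference of 3.99 ± 0.63 log2 (SE, adjusted p = 4.0e-04). WNT5A, a noncanonical WNT ligand, had 969 and 398 in WT and 2330.4 and 2519 with TGF-β, a difference of 1.96 ± 0.27 log2 (SE, adjusted p = 1.4e-04). FOXC2, a forkhead factor of EMT, had 62.0 and 44.5 in WT and 146 and 126 with TGF-β, a difference of 1.35 ± 0.28 log2 (SE, adjusted p = 0.00325) that was not called in the fit of the 10 libraries in 2% serum (adjusted p = 0.0646). CDH11, a cadherin of mesenchyme, had 0.938 and 0 in WT and 7.57 and 6.53 with TGF-β, at least 2.35-fold higher, with the call lost without WT replicate 2 (adjusted p = 0.213) and without either treated replicate (adjusted p = 0.143 and 0.105). The transcription factors most often tied to EMT were not called. ZEB1 had 607 and 575 in WT and 988 and 1072 with TGF-β, a difference of 0.80 log2 (adjusted p = 1.8e-05) under the fold required, ZEB2 had 317 and 330.4 in WT and 365 and 483 with TGF-β, a difference of 0.37 log2 (adjusted p = 0.0473), and SNAI2 had 26.8 and 23.5 in WT and 43.0 and 17.3 with TGF-β, a difference of 0.12 log2 (adjusted p = 0.914). SNAI1 was not analysed here. CDH2, N-cadherin, had 942 and 241 in WT and 185 and 0 with TGF-β, values spread widely within both groups (adjusted p = 0.363). AXL, a receptor tyrosine kinase of mesenchymal cells, was the called member that fell, with 1751 and 4985 in WT and 921 and 776 with TGF-β, a difference of −1.80 log2 (adjusted p = 0.00323).

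Epithelial genes went both ways. Of 45 tested genes of junctions and polarity, 5 were called higher (11.1%) and 4 lower (8.89%), with a median of −0.35. The called members that fell were an adaptor and transcription factors of epithelial cells. ELF3, an ETS factor of epithelium, had 2584 and 3414 normalized counts in the WT libraries and 519 and 600.0 with TGF-β, a difference of −2.41 ± 0.14 log2 (SE, adjusted p = 2.9e-08). EHF, its close relative, had 102 and 109.7 in WT and 17.5 and 7.25 with TGF-β, a difference of −3.11 ± 0.63 log2 (SE, adjusted p = 0.00303). AP1M2, the epithelial adaptor subunit for basolateral sorting, had 27.2 and 38.7 in WT and 0.348 and 1.36 with TGF-β and was at least 11-fold lower. OVOL2, a zinc-finger factor that restrains EMT, had 14.6 and 15.5 in WT and 4.04 and 0 with TGF-β, a difference of −2.84 log2 (adjusted p = 0.0128) lost without WT replicate 2 (−2.80 at adjusted p = 0.0682) and without treated replicate 2 (−1.67 at adjusted p = 0.172). Those that rose were CDH6, CLDN2, CLDN14, DSC2 and MARVELD2. CDH6, a cadherin of the developing proximal tubule, had 503 and 150.5 in WT and 1546 and 1792 with TGF-β, a difference of 2.59 ± 0.37 log2 (SE, adjusted p = 1.7e-04). CLDN2, the claudin that forms cation pores in proximal tubule, had 95.9 and 71.5 in WT and 255 and 225 with TGF-β, a difference of 1.52 ± 0.27 log2 (SE, adjusted p = 0.00106), with the call lost in the fit of the 10 libraries in 2% serum (adjusted p = 0.0837). DSC2, a desmosomal cadherin, had 29.4 and 5.85 in WT and 137 and 161 with TGF-β and a difference of 3.37 log2 (adjusted p = 0.00509) that was 2.30 at adjusted p = 0.0841 without WT replicate 2. CLDN14 and MARVELD2 also lost their calls without WT replicate 2 (1.18 at adjusted p = 0.32 and 2.74 at adjusted p = 0.25) and without either treated replicate, with 1.63 at adjusted p = 0.177 and 4.32 at adjusted p = 0.0704 without replicate 1 and 1.75 at adjusted p = 0.136 and 3.29 at adjusted p = 0.173 without replicate 2. The calls of OVOL2 (adjusted p = 0.0618) and CLDN14 (adjusted p = 0.131) did not pass in that fit either. Of the 9 junction and polarity calls, 5 passed without WT replicate 2. ESRP1, the epithelial splicing regulator, was listed at 0 in all 4 libraries. RBM47, an RNA-binding protein of epithelial cells, was the 1 splicing regulator called among 13 tested, with 1081 and 1643 in WT and 206 and 182 with TGF-β, a difference of −2.77 ± 0.50 log2 (SE, adjusted p = 0.00116). Keratins were called higher in 2 of 11 tested (18.2%), KRT7 and KRT81. KRT7, a simple epithelial keratin, had 787 and 78.0 in WT and 1368 and 1933 with TGF-β, and its difference of 2.71 log2 (adjusted p = 0.0157) was 1.05 at adjusted p = 0.169 without WT replicate 2, 2.95 at adjusted p = 0.052 without treated replicate 1 and 2.46 at adjusted p = 0.101 without treated replicate 2. KRT81, a hair keratin, had 285 and 13.7 in WT and 893 and 997.04 with TGF-β, a difference of 3.87 log2 (adjusted p = 0.00659). In the fit of the 10 libraries in 2% serum both calls were lost (adjusted p = 0.111 for KRT7 and adjusted p = 0.0918 for KRT81). KRT18 had 289.9 and 259 in WT and 191 and 146 with TGF-β, a difference of −0.72 log2 (adjusted p = 0.486).

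Of the proximal tubule genes, 29 of 50 passed the count minimum, 2 were called higher (6.90%) and 3 lower (10.3%). The largest falls were in neighboring phosphate and urate transporter genes. SLC17A3 (ENSG00000124564, chr6:25833066-25882286 on GRCh38, GENCODE v44) had 254 and 309 normalized counts in the WT libraries and 1.41 and 2.87 with TGF-β, and was at least 93.9-fold lower (adjusted p = 2.1e-05). SLC17A1 (ENSG00000124568, chr6:25782915-25832052), which lies next to it, had 192 and 208 in WT and 3.76 and 1.77 with TGF-β, a difference of −5.79 ± 0.49 log2 (SE, adjusted p = 1.4e-06). Both were near 0 in the treated libraries, and their WT replicates were close together. Both were also among the genes taken for the widest gap between groups, which favors such values. CA2, a cytosolic carbonic anhydrase, had 33.0 and 69.4 in WT and 0 and 3.63 with TGF-β, a difference of −4.51 log2 (adjusted p = 0.00736) lost without WT replicate 2 (−3.98 at adjusted p = 0.0707) and without treated replicate 1 (−3.40 at adjusted p = 0.0978). CA12 and VDR were the called members that rose. VDR, the vitamin D receptor, had 158 and 120.5 in WT and 369 and 332 with TGF-β and lost its call without WT replicate 2 (1.14 at adjusted p = 0.164) and without either treated replicate (adjusted p = 0.129 and 0.0808). CA12, a membrane carbonic anhydrase, had 18.9 and 9.06 in WT and 40.0 and 59.6 with TGF-β, a difference of 1.82 log2 (adjusted p = 8.1e-04). In the fit of the 10 libraries in 2% serum VDR had adjusted p = 0.105, and with p from the deposited values CA12 had an adjusted p of 0.0709. Without WT replicate 2, and likewise without treated replicate 1, 3 of the 5 proximal tubule calls passed.

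Markers of tubular injury were split, with 5 of 14 called higher (35.7%) and 4 lower (28.6%). HAVCR1, the injury marker KIM-1, had 1169 and 1869 normalized counts in the WT libraries and 127 and 111 with TGF-β. Both treated libraries were far below both WT libraries, a difference of −3.62 ± 0.82 log2 (SE, adjusted p = 0.00619) that was −3.29 at adjusted p = 0.0592 without WT replicate 2. CD24, a surface glycoprotein of injured and progenitor-like tubule cells, had 1618 and 3887 in WT and 418 and 522 with TGF-β, a difference of −2.42 ± 0.48 log2 (SE, adjusted p = 0.00239). CLU, the chaperone clusterin, went the other way with 6153 and 1085 in WT and 17736 and 19240.2 with TGF-β, a difference of 2.84 ± 0.50 log2 (SE, adjusted p = 9.8e-04). CCL2, the monocyte chemoattractant, had 1456 and 681 in WT and 3385 and 3284 with TGF-β, a difference of 1.74 ± 0.24 log2 (SE, adjusted p = 1.2e-04). Without WT replicate 2, 4 of the 9 calls passed. HAVCR1, SPP1, KRT7, IGFBP7 and PROM1, a surface glycoprotein of progenitor-like tubule cells (difference of 1.02 log2 (adjusted p = 4.0e-04), and 0.68 at adjusted p = 0.00217 in that fit), were the calls lost. When each library was left out in turn, 3 of the 9 passed every time.

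Cell cycle genes were called lower in both lists that hold them. Of 60 tested genes of G2 and mitosis, 35 were called lower (58.3%) and 0 higher (0 at an unadjusted p below 0.05). All 35 were clear of both WT libraries, and 58 of 60 had a negative difference. The list's median difference was −1.84, and it was −1.73 against WT replicate 1 and −2.16 against WT replicate 2. In bulk RNA, fewer cycling cells and less of these mRNAs in each cell cannot be told apart, and the same holds for the genes above. MKI67, the proliferation marker Ki-67, had 4088 and 6581 normalized counts in the WT libraries and 959 and 859 with TGF-β, a difference of −2.51 ± 0.52 log2 (SE, adjusted p = 0.00352) that was not called in a fit of only the 10 libraries in 2% serum (adjusted p = 0.0666). CCNB1, cyclin B1, had 2712 and 3033 in WT and 623 and 763 with TGF-β, a difference of −2.05 ± 0.17 log2 (SE, adjusted p = 9.5e-07), and CDK1, its kinase, had 1748 and 2153 in WT and 598 and 660.0 with TGF-β, a difference of −1.63 ± 0.15 log2 (SE, adjusted p = 4.6e-06). All 3 genes had treated libraries at less than 0.5 times the lower WT library. FOXM1, the transcription factor of G2 genes, had 1841 and 2657 in WT and 640.0 and 529.9 with TGF-β, a difference of −1.92 ± 0.17 log2 (SE, adjusted p = 2.6e-06). HMMR, a spindle protein, had 285 and 349.8 in WT and 30.6 and 26.2 with TGF-β, a difference of −3.44 ± 0.48 log2 (SE, adjusted p = 1.6e-04). CDCA3, a trigger of mitotic entry, had 1135 and 1666 in WT and 258 and 231 with TGF-β, a difference of −2.49 ± 0.18 log2 (SE, adjusted p = 4.0e-07). In each of these WT replicate 2 was the highest library, as it was above WT replicate 1 in most genes called lower.

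Some mitotic genes with low counts were less certain. KIF15, a spindle kinesin, was listed with 113 and 79.8 in WT and 0 and 0 with TGF-β, at least 32.1-fold lower. Its call was lost without any 1 of the 4 libraries (adjusted p from 0.0699 to 0.0812), and 1 replicate of Rescue1 also had 0 against 92.2 in the other. CKAP2L and KIF2C, spindle proteins, had 63.7 and 97.7 in WT and 2.51 and 16.3 with TGF-β, respectively 54.2 and 75.4 in WT and 13.2 and 3.11 with TGF-β. Both lost their calls without WT replicate 2 (−3.06 at adjusted p = 0.11 and −2.85 at adjusted p = 0.0883), CKAP2L also without treated replicate 1 (−2.21 at adjusted p = 0.201) and KIF2C without treated replicate 2 (−2.19 at adjusted p = 0.146). TOP2A, the topoisomerase of mitotic chromosomes, had 22.3 and 99.5 in WT and 4.45 and 5.32 with TGF-β, a difference of −3.04 log2 (adjusted p = 0.00553) that was −1.99 at adjusted p = 0.0959 without WT replicate 2 and was not called in the fit of the 10 libraries in 2% serum (adjusted p = 0.0645), as CKAP2L was not (adjusted p = 0.118). Leaving out 1 library at a time left 23 to 31 of the 35 calls, with 23 without WT replicate 2 and 24 without treated replicate 1, and 21 calls passed every time. In the fit of the 10 libraries in 2% serum 23 of the 35 passed. Genes that every cycling cell uses were listed near 0 in these libraries, among them MCM6 with 13.0 and 0 in WT and 0 and 1.259 with TGF-β and GINS2 with 0 and 9.92 in WT and 0 and 0 with TGF-β, so a level at or near 0 is not read as absence.

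Many promoters of the mitotic list share a sequence. The cell cycle homology region, TTTGAA, is a known element of G2 and mitotic promoters through which DREAM-type repressor complexes act, and it was searched on both strands (TTCAAA on the other) in windows from 250 bases before to 50 bases after the listed start (RefSeq, GRCh38.p14). Of the 13005 tested protein-coding genes, 10400 had at least 1 listed start and 7160 had exactly 1, and shares are given over the latter. The element was found in 9.55% of all 7160 windows and in 29 of 42 windows of the mitotic list (69.0%), in 18 of 24 for its called members (75.0%) and in 11 of 18 for the rest. Among genes of S phase it was found in 1 of 30 windows (3.33%). It was in 53 of 288 windows of all genes called lower (18.4%) and 25 of 229 of those called higher (10.9%). The 288 windows include the 24 of called mitotic members, which hold 18 of the 53. Over every listed start the share was 60.3% of 63 windows of the mitotic list against 10.8% of 15626. The 100 bases from 80 before to 20 after the start are shown for called members to show where the element lies, with each match in capitals.
HMMR (chr5:163460552-163460651, plus strand): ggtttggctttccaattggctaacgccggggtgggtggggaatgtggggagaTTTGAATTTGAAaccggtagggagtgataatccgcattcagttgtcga
CKAP2L (chr2:112764590-112764689, minus strand): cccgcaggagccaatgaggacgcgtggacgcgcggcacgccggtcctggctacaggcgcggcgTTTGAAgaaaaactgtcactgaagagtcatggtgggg
MKI67 (chr10:128126404-128126503, minus strand): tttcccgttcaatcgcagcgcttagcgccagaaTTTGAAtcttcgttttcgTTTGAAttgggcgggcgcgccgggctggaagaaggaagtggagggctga
PLK1 (chr16:23678809-23678908, plus strand): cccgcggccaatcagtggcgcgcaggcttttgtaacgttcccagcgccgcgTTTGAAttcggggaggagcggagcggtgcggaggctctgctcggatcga
BUB1B (chr15:40160989-40161088, plus strand): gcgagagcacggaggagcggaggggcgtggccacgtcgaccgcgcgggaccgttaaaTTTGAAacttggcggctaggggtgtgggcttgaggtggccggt
KIF15 (chr3:44761714-44761813, plus strand): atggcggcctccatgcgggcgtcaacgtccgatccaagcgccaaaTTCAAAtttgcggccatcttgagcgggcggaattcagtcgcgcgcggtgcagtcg
KIF2C (chr1:44739757-44739856, plus strand): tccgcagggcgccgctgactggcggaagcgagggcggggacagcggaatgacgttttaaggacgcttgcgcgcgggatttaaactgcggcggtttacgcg
HMMR and MKI67 carry the element 2 times within these bases, at 28 and 22 and at 47 and 29 bases before the start, and CKAP2L, PLK1 and BUB1B carry it at 17, 29 and 23 bases before the start. KIF15 has it on the other strand, at 35 bases before the start, and KIF2C has no match in its window. PLK1, a mitotic kinase, had 87.6 and 115 in WT and 19.1 and 27.0 with TGF-β, and BUB1B, a spindle checkpoint kinase, had 1778 and 2243 in WT and 699 and 601 with TGF-β, with log2 changes of −2.10 and −1.62. The call of PLK1 was lost without any 1 of the 4 libraries, with adjusted p-values from 0.0568 to 0.153, and in the fit of the 10 libraries in 2% serum (adjusted p = 0.173). A match is a description of the letters in the window and not a shown site. For genes called higher, the short SMAD binding element CAGAC, searched on both strands, was in 46.7% of windows against 43.4% of all windows.

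Some genes of S phase and DNA replication fell as well. Of 47 tested, 15 were called lower (31.9%) and 1 higher (2.13%), and 43 had a negative difference, with a median of −1.08. MCM4 and MCM5, subunits of the replicative helicase, had 2595 and 3047 normalized counts in the WT libraries and 729.6 and 756 with TGF-β, respectively 818 and 1410.4 in WT and 289.8 and 370.2 with TGF-β. Their differences were −1.92 (adjusted p = 1.6e-05) and −1.71 (adjusted p = 3.1e-04). CDC45, which joins that helicase, had 263 and 391 in WT and 108 and 79.4 with TGF-β, a difference of −1.78 ± 0.36 log2 (SE, adjusted p = 0.00286). MCM10, which helps to fire origins, had 184 and 323 in WT and 56.5 and 45.3 with TGF-β, a difference of −2.24 ± 0.39 log2 (SE, adjusted p = 9.4e-04). E2F8, an atypical E2F repressor, had 215 and 373 in WT and 25.0 and 0 with TGF-β, TK1, thymidine kinase, had 79.1 and 105 in WT and 15.3 and 6.14 with TGF-β, and RRM1, the large subunit of ribonucleotide reductase, had 98.7 and 125 in WT and 27.3 and 7.07 with TGF-β. Each of these 3 lost its call without WT replicate 2 (−5.40 at adjusted p = 0.139, −2.89 at adjusted p = 0.0837 and −2.72 at adjusted p = 0.167) and without treated replicate 2 (−3.45 at adjusted p = 0.289, −2.50 at adjusted p = 0.114 and −1.99 at adjusted p = 0.29). E2F8 was also listed at 0 and 91.1 in the duplicates of Rescue1. E2F8 and RRM1 lost their calls without WT replicate 1 as well (−6.20 at adjusted p = 0.0663 and −3.06 at adjusted p = 0.0897). The member that rose was CCND1, cyclin D1 of G1, with 6803 and 3852 in WT and 18682 and 17486 with TGF-β, a difference of 1.82 ± 0.16 log2 (SE, adjusted p = 2.5e-06). Leaving out 1 library at a time left 8 to 13 of the 16 calls, with 8 without WT replicate 2 and 9 without treated replicate 2. In the fit of the 10 libraries in 2% serum 9 of the 16 passed, and E2F8 (adjusted p = 0.0533), TK1 (adjusted p = 0.0948) and RRM1 (adjusted p = 0.128) were among those lost.

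**Figure D4:**
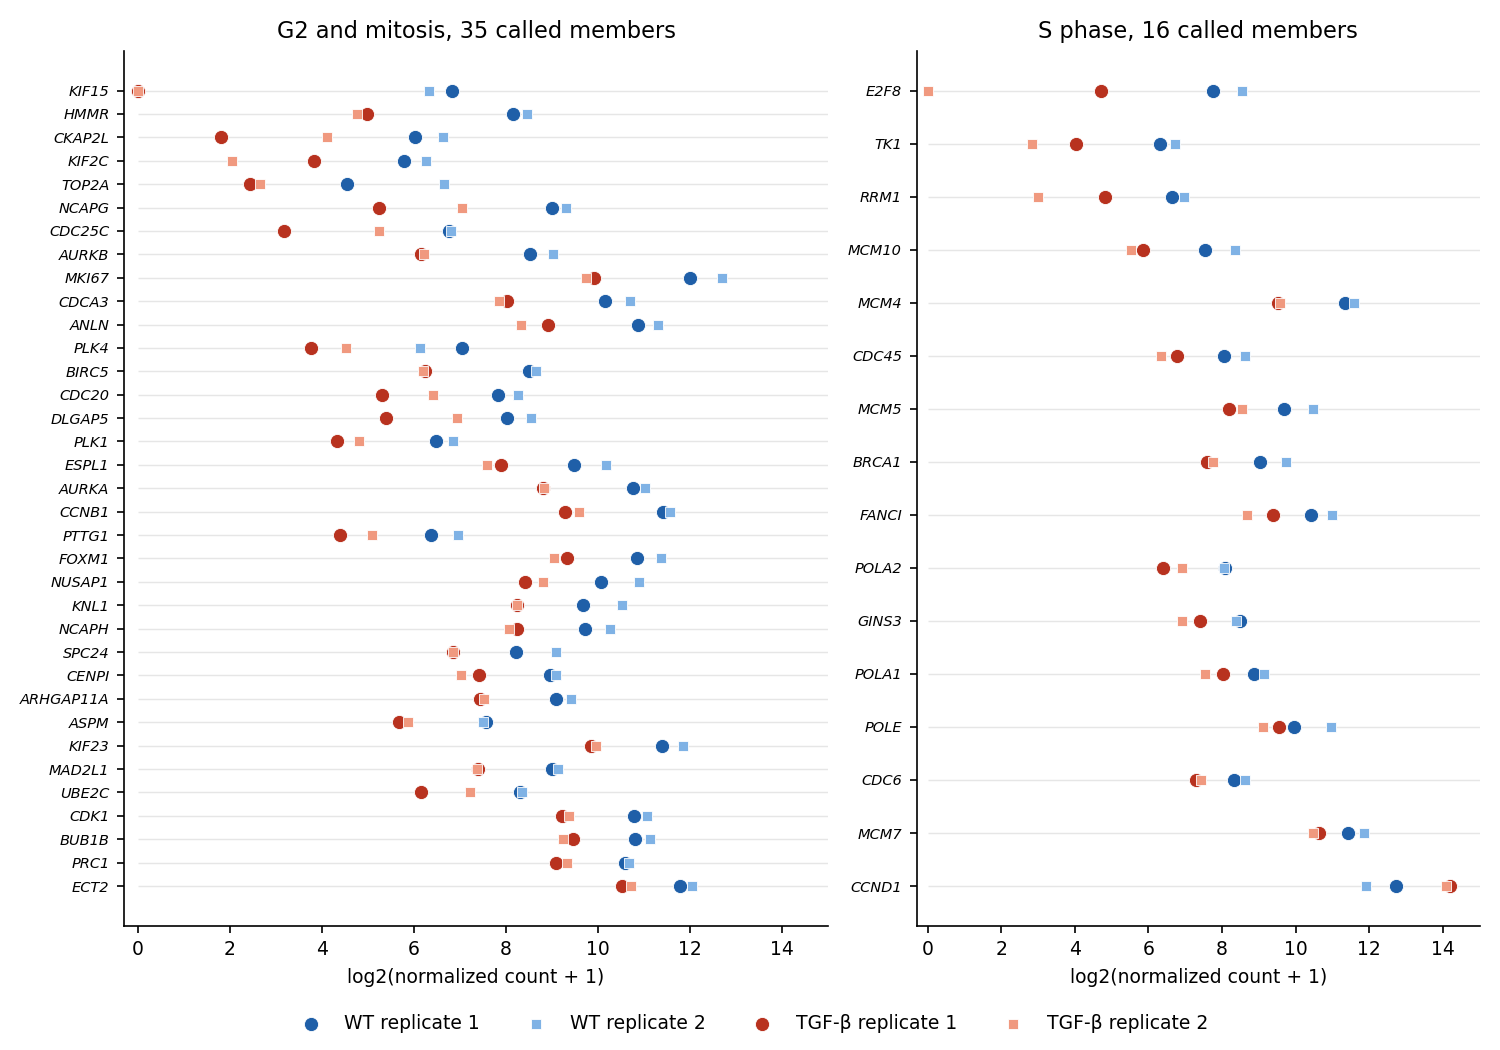
The called members of the G2 and mitosis list (left, 35 genes) and of the S phase list (right, 16 genes) are drawn with 1 point per library on a log2(normalized count + 1) axis, sorted by their change (blue, WT; red, TGF-β; circles, replicate 1; squares, replicate 2). All 35 mitotic genes have both red points left of both blue points, and CCND1 is the only called S phase gene with the red points on the right.

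Of 17 inhibitors of cyclin-dependent kinases and senescence genes, 1 was called higher (5.88%), CDKN2B, and 3 lower (17.6%). CDKN1A, the inhibitor p21, had 8098 and 7359 in WT and 10823 and 10649 with TGF-β, a difference of 0.48 log2 (adjusted p = 0.0015) under the fold required. LMNB1, lamin B1 of the nuclear envelope, had 585 and 638 in WT and 132 and 74.0 with TGF-β, a difference of −2.62 ± 0.42 log2 (SE, adjusted p = 4.8e-04). CDKN1C, the inhibitor p57, had 160.2 and 151 in WT and 61.4 and 23.4 with TGF-β, a difference of −2.00 ± 0.29 log2 (SE, adjusted p = 2.2e-04). RBL1, the pocket protein p107, had 286 and 374 in WT and 116 and 214 with TGF-β, and its difference of −1.05 log2 (adjusted p = 0.0185) was −0.85 at adjusted p = 0.153 without WT replicate 2 and −0.61 at adjusted p = 0.241 without treated replicate 1, and it was not called in the fit of the 10 libraries in 2% serum (adjusted p = 0.108). Both treated libraries were below both WT libraries for LMNB1 and CDKN1C, with 1 treated replicate lower than the other.

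Cytokine genes went both ways, and most called interferon-stimulated genes fell. Of 29 cytokine and chemokine genes, 6 were called higher (20.7%) and 3 lower (10.3%). CXCL12, the chemokine of CXCR4, had 74.9 and 6.88 normalized counts in the WT libraries and 215 and 182 with TGF-β, a difference of 3.02 ± 0.62 log2 (SE, adjusted p = 0.00318), again with WT replicate 1 nearer the treated libraries, and its call was lost in the fit of the 10 libraries in 2% serum (adjusted p = 0.0648). TNFRSF11B, the decoy receptor osteoprotegerin, had 27.0 and 20.1 in WT and 71.1 and 151 with TGF-β, a difference of 2.11 ± 0.36 log2 (SE, adjusted p = 7.8e-04). IL18, an epithelial cytokine of the IL-1 family, had 75.8 and 75.2 in WT and 16.9 and 25.6 with TGF-β, a difference of −1.81 log2 (adjusted p = 0.00534) that was −1.52 at adjusted p = 0.0632 without treated replicate 1 and was not called in the fit of the 10 libraries in 2% serum (adjusted p = 0.0558). CCL20, a chemokine of epithelium, had 7.71 and 10.3 in WT and 2.95 and 3.79 with TGF-β, a difference of −1.19 log2 (adjusted p = 0.00157) that was −0.74 with a pseudocount of 5, under the fold required. CXCL2, a neutrophil chemokine, had 21.4 and 26.1 in WT and 8.00 and 14.0 with TGF-β, a difference of −1.08 log2 (adjusted p = 0.00814) lost without WT replicate 2 (−0.95 at adjusted p = 0.0708) and without treated replicate 1 (−0.71 at adjusted p = 0.11), with a pseudocount of 5 (−0.86) and in the fit of the 10 libraries in 2% serum (adjusted p = 0.163). With p taken from the deposited values, adjusted p was 0.405 for CCL20, 0.233 for CXCL2, 0.224 for TNFRSF11B and 0.0561 for IL18. Of 39 interferon-stimulated genes, 6 were called lower (15.4%) and 1 higher (2.56%), and 27 had a negative difference. IFIT2, an interferon-induced RNA-binding protein, had 389 and 426 in WT and 136 and 150.5 with TGF-β, a difference of −1.50 ± 0.32 log2 (SE, adjusted p = 0.00422), and GBP2, a guanylate-binding protein, had 251 and 209 in WT and 75.2 and 32.3 with TGF-β, a difference of −2.19 ± 0.33 log2 (SE, adjusted p = 2.7e-04). OAS2, which senses double-stranded RNA, had 16.5 and 18.3 in WT and 3.84 and 1.31 with TGF-β, a difference of −2.46 log2 (adjusted p = 0.00337) that did not pass with p from the deposited values (adjusted p = 0.482). ISG20, an exonuclease, had 45.1 and 24.6 in WT and 6.35 and 14.7 with TGF-β and lost its call without WT replicate 1 (−1.25 at adjusted p = 0.206) and without treated replicate 1 (−1.13 at adjusted p = 0.274) and in the fit of the 10 libraries in 2% serum (adjusted p = 0.0876). TRIM22, the 1 called higher, had 402 and 453 in WT and 804 and 998 with TGF-β and was under the fold required without WT replicate 1 (0.98 at adjusted p = 0.0115) without treated replicate 2 (0.91 at adjusted p = 0.0212) and with 1 common total (0.83).

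Among growth factor genes, the receptors FGFR2 and ERBB3 fell and the ligands PDGFA and PDGFB rose. Of 32 tested, 7 were called higher (21.9%) and 4 lower (12.5%). FGFR2, the FGF receptor of epithelium, had 401 and 532 normalized counts in the WT libraries and 7.92 and 3.92 with TGF-β, a difference of −6.13 ± 0.54 log2 (SE, adjusted p = 2.1e-06). ERBB3, a receptor of neuregulins, had 155 and 207 in WT and 22.9 and 32.4 with TGF-β, a difference of −2.67 ± 0.44 log2 (SE, adjusted p = 5.9e-04). Both receptors were low in both treated libraries, FGFR2 with fewer than 8 normalized counts. PDGFA had 714 and 406 in WT and 1515 and 1386 with TGF-β (log2 change 1.43), next to PDGFB and PDGFRA above. FGF1 had 796 and 441 in WT and 1701 and 1726 with TGF-β and lost its call without WT replicate 2 (1.10 at adjusted p = 0.0565), and IGFBP6 had 159 and 364 in WT and 86.2 and 25.7 with TGF-β and lost it there too (−1.73 at adjusted p = 0.119) and without treated replicate 2 (−1.47 at adjusted p = 0.132). IGFBP7 had 36985 and 23807 in WT and 60250.3 and 60709 with TGF-β, a difference of 1.03 log2 (adjusted p = 6.0e-05) that was 0.71 at adjusted p = 3.5e-06 without WT replicate 2 and 0.79 with 1 common total, under the fold required. FGF9 had 31.2 and 17.4 in WT and 1.252 and 0.722 with TGF-β, at least 8.09-fold lower, and lost its call without WT replicate 1 (adjusted p = 0.0599) and without treated replicate 2 (adjusted p = 0.0588). Of the 11 calls, 6 passed without WT replicate 2, where FGF5, a growth factor ligand (0.83 at adjusted p = 0.108), and IGFBP3, a binder of insulin-like growth factors (0.83 at adjusted p = 2.6e-05), lost theirs as well. When each library was left out in turn, 5 of the 11 passed every time.

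The lists of fatty acid oxidation and cholesterol synthesis held few calls. Fatty acid oxidation had 0 of 26 called in limma, with 3 higher and 7 lower at an unadjusted p below 0.05, 18 negative differences and a median of −0.26. Cholesterol synthesis had 1 of 26 called lower (3.85%), SREBF2, a transcription factor of sterol genes, with 269 and 220.0 in WT and 86.1 and 118 with TGF-β, and its call was lost without any 1 of the 4 libraries (adjusted p from 0.0671 to 0.231). Glycolysis and hypoxia genes had 2 of 26 called higher (7.69%) and 3 lower (11.5%), against 3.58% and 4.26% of all tested genes. NDRG1, a hypoxia-induced gene, had 1931 and 2428 normalized counts in the WT libraries and 646 and 643 with TGF-β, a difference of −1.75 ± 0.17 log2 (SE, adjusted p = 5.4e-06). BNIP3, a mitophagy receptor induced by hypoxia, had 2175 and 2314 in WT and 778 and 802 with TGF-β, a difference of −1.51 ± 0.08 log2 (SE, adjusted p = 1.7e-08), and ENO1, the enolase of glycolysis, had 62606 and 76469 in WT and 34713 and 33870.5 with TGF-β, a difference of −1.01 log2 (adjusted p = 6.2e-07) that was −0.87 at adjusted p = 1.6e-06 without WT replicate 2 and −0.995 at adjusted p = 2.1e-05 without treated replicate 2. VEGFA and PFKFB4 rose. VEGFA, the angiogenic growth factor, had 10350.1 and 6591 in WT and 17861 and 18639 with TGF-β, and PFKFB4, an enzyme that sets glycolytic flux, had 89.8 and 31.9 in WT and 229.8 and 210.5 with TGF-β. The change of VEGFA was 0.82 at adjusted p = 6.5e-07 without WT replicate 2 and 0.91 with 1 common total, under the fold required. Of the 5 glycolysis and hypoxia calls, 3 passed without WT replicate 2. YAP and TEAD targets had 2 of 20 called higher (10.0%) and 1 lower (5.00%). ANKRD1, a nuclear ankyrin protein, had 1784 and 949.5 in WT and 3220.2 and 3753 with TGF-β, and F3, tissue factor, had 237 and 89.0 in WT and 459 and 488 with TGF-β, and both lost their calls without WT replicate 2 (0.96 at adjusted p = 8.8e-04 and 0.996 at adjusted p = 0.0627), which left 1 of the 3 calls.

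**Figure D5:**
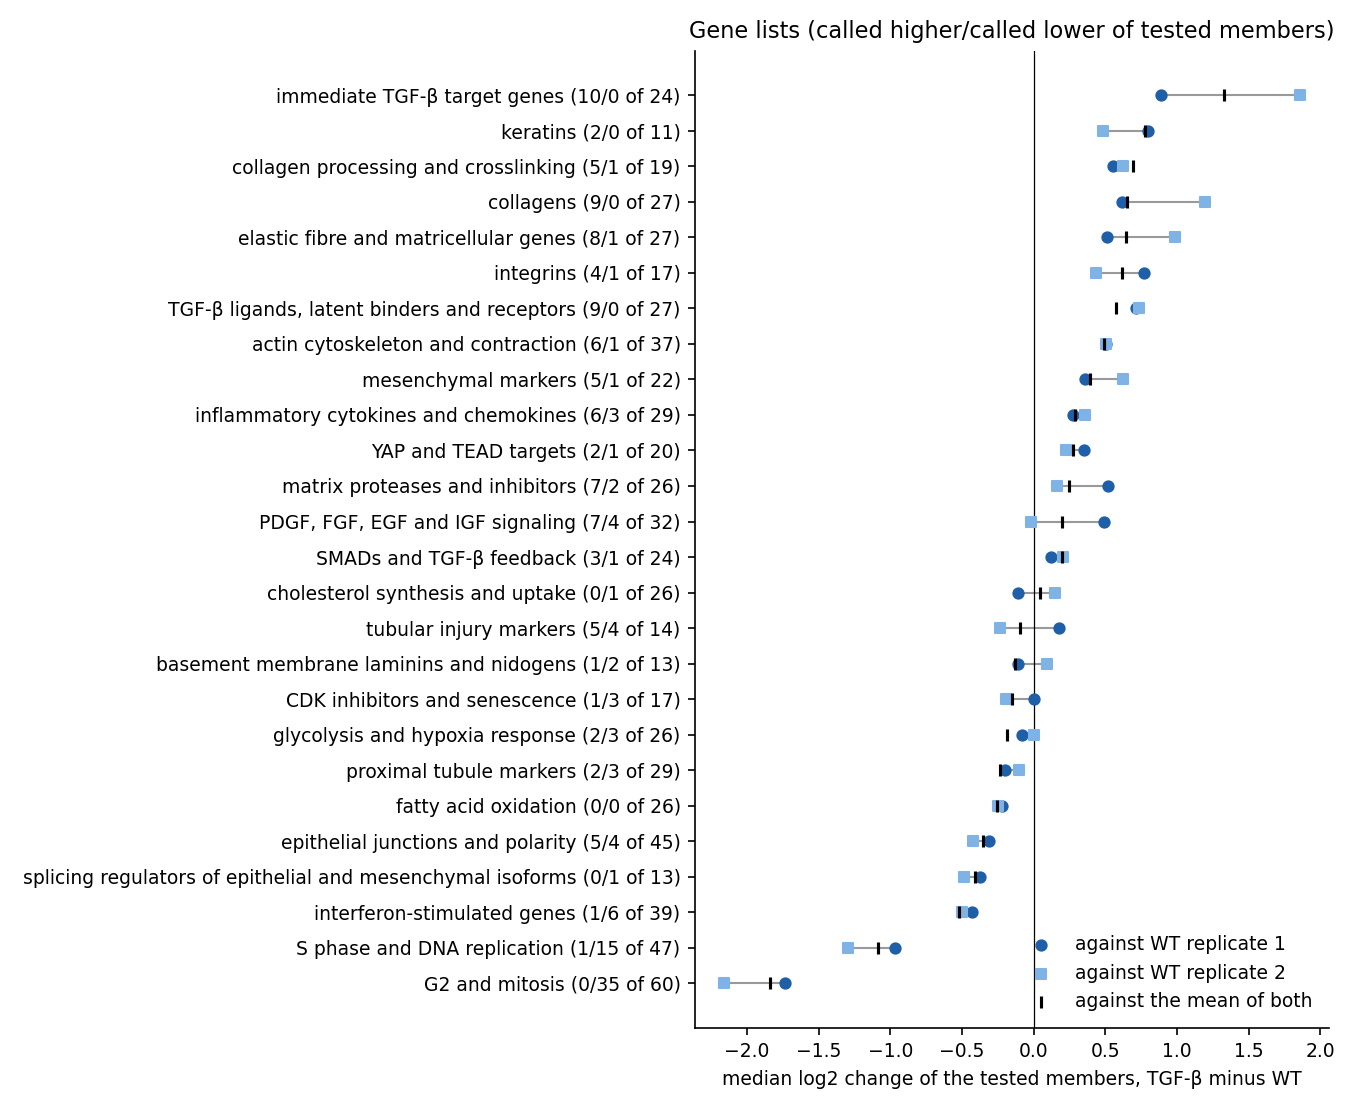
Each row is 1 of 26 gene lists with, in brackets, its called higher and called lower members of those tested; points give the median log2 change of the tested members against WT replicate 1 (dark circles), against WT replicate 2 (light squares) and against the mean of both (black ticks, which need not lie between the points because medians are not additive). The mitotic (−1.84) and S phase (−1.08) lists lie lowest and the direct TGF-β targets (1.33) highest, and the medians of SMADs, laminins, proximal tubule, injury, CDK inhibitor, glycolysis, cholesterol and growth factor genes change sign in 1 or more alternatives.

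Beyond the lists, the genes with the widest gap between the groups were listed at or near 0 in one group. Among genes higher after treatment, SORCS3, a sorting receptor of neurons, had 0 and 0 normalized counts in the WT libraries and 73.5 and 35.4 with TGF-β, at least 18.2-fold higher. SPSB1, an adaptor of a ubiquitin ligase that acts on TGFBR2, had 0 and 0 in WT and 35.1 and 77.6 with TGF-β, at least 18.8-fold higher. ATP2A1, a sarcoplasmic calcium pump, had 2.31 and 1.83 in WT and 157 and 65.4 with TGF-β, at least 37.1-fold higher, and BCL11A, a zinc-finger repressor, had 2.40 and 1.98 in WT and 47.1 and 58.4 with TGF-β, at least 17.6-fold higher. These genes were taken for their wide gap, and both WT libraries were at or under 3 normalized counts. The small spread between the WT libraries is thus set by the floor. Treated replicate 1 minus replicate 2 was 1.03 log2 for SORCS3, −1.12 for SPSB1, 1.25 for ATP2A1 and −0.30 for BCL11A. PRKAA2, the α2 catalytic subunit of AMPK, had 0 and 0 in WT and 363 and 193 with TGF-β, at least 92.7-fold higher, but its KO2 duplicates had 0 and 262 and its call was lost in the fit of the 10 libraries in 2% serum (adjusted p = 0.0551). ENSG00000258465 had 0 and 0 in WT and 257 and 80.6 with TGF-β, lost its call without any 1 of the 4 libraries (adjusted p from 0.101 to 0.218) and was near 0 in 1 duplicate of Rescue2, WT eGFP and WT OCT2 and between 93.0 and 209.7 in the other. IL7R, the receptor of interleukin-7, had 6.27 and 0 in WT and 69.3 and 54.2 with TGF-β and lost its call without WT replicate 2 (3.10 at adjusted p = 0.183) and without either treated replicate (4.36 at adjusted p = 0.0881 and 4.71 at adjusted p = 0.0621) and in the fit of the 10 libraries in 2% serum (adjusted p = 0.107).

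Among genes lower after treatment, those with the widest gap included ATP6V0A4, IRX3 and SLPI. ATP6V0A4, the a4 subunit of the proton pump of renal intercalated cells, had 62.4 and 109.7 normalized counts in the WT libraries and 0 and 0 with TGF-β, at least 28.7-fold lower (adjusted p = 1.4e-07). IRX3, a homeobox factor of nephron segments, had 48.4 and 94.4 in WT and 0 and 0 with TGF-β, at least 23.8-fold lower. SLPI, a secreted inhibitor of leukocyte proteases, had 86.2 and 88.8 in WT and 0.945 and 1.23 with TGF-β, at least 29.2-fold lower, with WT replicates that nearly coincided. EVI2A, a membrane protein gene within an intron of NF1, had 64.0 and 66.4 in WT and 0 and 0 with TGF-β, at least 21.7-fold lower, and LY6K had 42.8 and 57.2 in WT and 0.377 and 0 with TGF-β, at least 16.7-fold lower. These genes, too, were taken for their wide gap, so neither the gap nor close WT replicates are separate support. Both treated libraries were at or under 3 normalized counts, and the small spread between them is set by the floor. PHF2, a histone demethylase, had 114 and 66.9 in WT and 0 and 0 with TGF-β, but it was split between duplicates in KO1, KO2 and Rescue1 and lost its call without any 1 of the 4 libraries (adjusted p from 0.105 to 0.129). Of all 1143 called genes, 136 had 1 group at or under 3 normalized counts in both libraries, 46 in WT and 90 with TGF-β. Some genes were split between the duplicates of another group, with 3 or less in 1 and 30 or more in the other. This held for 14 of the 1143 called genes (1.22%) and for 1020 of all 14585 tested (6.99%). Of the 136 called genes with a group at or under 3, 9 were split. A split widens the spread used in the test, so the lower share among called genes is not a separate check.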

How the data were processed

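The authors quantified stranded mRNA libraries with Salmon against Ensembl 94 cDNA (GRCh38) and normalized gene counts with DESeq2 (Salmon 1.9.0 and DESeq2 1.26.0 in the submitters' processing notes). The deposited values of 36859 genes in 22 libraries are variance-stabilized log2 values with a shared minimum of 11.3, and they were converted back to normalized counts. The 14585 genes that reached 10 normalized counts in 2 or more libraries entered tests on log2(normalized count + 1) with limma 3.58.1 in R 4.3.3, with a mean per group, a variance trend and 11 residual degrees of freedom. The fit was tested on simulated counts with the same spread setting for every gene and library. That test does not cover duplicates of unequal spread, as seen here. The floor for folds was 3 normalized counts per library, set against the mean of the higher group, and covers counting error only. The fit was planned without a replicate block, and same-numbered deviations had a correlation of −0.175. Alternatives changed the pseudocount, filter, scaling, libraries, weights, block or scale.

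The members and gene lists were chosen with earlier results of these data known. Named genes were up to 4 called members of each list in each direction with the widest change, the 10 protein-coding genes in each direction with the widest gap between groups and at least 50 normalized counts in the higher group, a set taken whatever their values, and markers. BUB1B, CCNB1, CDC45, CDCA3, CDK1, CLDN2, COL27A1, COL4A2, COL6A2, COL6A3, FOXM1, GINS2, IFIT2, MCM4, MCM5, MCM6 and PLK1 were chosen after their values were seen. Symbols and coordinates came from GENCODE 44, which matched 33878 genes. Some genes are not reported here.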

Additional observations from a re-analysis of the deposited data

How the results depend on the processing

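Of the 125 called genes that the naming rule took, 0 changed sign in the 15 or 16 alternatives that could be computed for each, 67 lost the call only in the fits of 4 libraries or on the deposited scale, and 58 lost it in another as well. The deposited log2 values gave 31 calls, 25 higher and 6 lower, because that scale compresses differences and 2719 genes had an adjusted p below 0.05. With p from those values and the fold from normalized counts, an alternative chosen after seeing the data, 1229 genes were called, and 1015 of them were among the 1143. In the fit of the 4 libraries alone 0 genes were called, 0 higher and 0 lower, likewise with the replicate block in those 4 (1295 with the fold and an unadjusted p below 0.05) and, an alternative chosen after seeing the data, with the WT numbers crossed (1401). The replicate block in all libraries gave 1116 calls, 502 higher and 614 lower, and the crossed block 1130. The check of the replicate numbers gave a correlation of −0.175. The numbering within a group may be arbitrary, so this check cannot show whether same-numbered libraries were made together. With 1 common total 935 genes were called lower. The 10 libraries in 2% serum alone gave 346 called higher. An unadjusted p with the fold gave 1722 genes, 819 of them higher, and an adjusted p with no fold 2584, of which 1239 were higher and 1345 lower. Clear of both WT libraries were 317 called higher. Leaving out 1 replicate gave 739 to 1308 calls, 340 to 666 higher and 399 to 642 lower, the lowest without WT replicate 2 and the highest without WT replicate 1, where the lone library of a group was assumed to vary like the others. COL4A1, not called, had −0.09 with both replicates, 2.69 without WT replicate 1 and −2.87 without WT replicate 2. Without genes split between duplicates of another group, also chosen after seeing the data, 519 were higher and 610 lower. Medians of 18 of 26 gene lists kept their sign in every alternative. With about 12100000 to 15500000 reads and 2 libraries a group, genes at 3 normalized counts or less give only bounds.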

Other observations

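A further gene of the cluster of SLC17A1 and SLC17A3 on chromosome 6 was also called lower. SLC17A4, a sodium-coupled anion transporter of intestine that adjoins SLC17A1 (chr6:25754699-25781199, GRCh38), had normalized counts of 8.25 and 7.86 in WT and 0 and 0 with TGF-β, at least 2.68-fold lower (adjusted p = 0.00608), and was chosen after its values were seen. SLC17A2, on the other side of SLC17A3 (chr6:25912754-25930691), was listed at 0 in all 4 libraries, as was SCGN, which encodes the calcium sensor secretagogin, before SLC17A4 (chr6:25652201-25701783). The 3 called genes of the cluster were lower in both treated libraries than in either WT library, and the WT replicates were close together for each. SLC17A1 and SLC17A3 were among the genes taken for a wide gap and SLC17A4 was chosen after its values were seen, so this is a description. SLC17A2 and SCGN, at 0 throughout, cannot show whether the fall reaches further, which was not tested.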
